A study of Homo sapiens with 2 samples.

Results

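The interferon response genes described here are 39 transcripts known from other work to be induced by interferons, and they were measured in the lung carcinoma line EBC1 and in EBC1-R, a subline resistant to a MET inhibitor. They were taken by name from a list, with no rule on their measured values. That list was nonetheless chosen with earlier results of these data known. Of the 39 genes, 38 had a value among the 18377 genes of the deposited table. STAT2 was the member not analysed here. EBC1 is an established human lung squamous cell carcinoma line whose growth depends on MET, the cell-surface kinase that binds hepatocyte growth factor. EBC1-R was derived from it in rising amounts of PHA-665752, which inhibits the MET kinase, and was kept in 3 µM inhibitor, so resistance and exposure to the drug cannot be told apart in this design. Each line was measured once, on 1 array, and no value below has a replicate error or a test. The labels name several culture media and do not say which line grew in which, and no source used here says whether EBC1-R is 1 clone.

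Interferons are secreted proteins, and cells release those of type I and type III when they sense viral or misplaced nucleic acid. Type I interferons (alpha and beta) and type III interferons (lambda) signal through JAK1 and TYK2 to a complex that holds STAT2 and IRF9 and binds the interferon-stimulated response element, or ISRE, in target promoters. Interferon gamma signals through JAK1 and JAK2, and promoters of its targets carry the gamma-activated site, or GAS. The targets include proteins that bind foreign RNA, degrade it, block viral entry or tag proteins with ISG15, and tumour cells can express them without infection.

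All levels are log2 intensities as deposited, and every difference is EBC1-R minus EBC1 on that scale, so that 1 unit is 2-fold. ABCB1, the drug efflux pump named in the title of the study, stood at 5.37 in EBC1 and 12.65 in EBC1-R, and MET was at 13.17 and 13.21. Epithelial markers were high in both lines (9 of 9 measured markers above the median of all genes' mean levels), with a median difference of -0.02. Among them KRT19 (-0.89), KRT8 (-0.83) and KRT18 (-0.78) were lower in EBC1-R, below the central 95% of all genes' differences (-0.65 to 0.75). CDH3 was higher (0.67). Of 7 measured squamous markers, 1 was above that median, S100A2 (7.42 and 7.15, a difference of -0.26). KRT14 was below it (7.26 and 6.97, a difference of -0.30). KRT5 (6.17 and 6.11), DSG3 (5.19 and 5.13) and SOX2 (6.53 and 6.39) were low in both. TP63, KRT6A and KRT17 had no gene value here. Markers of other cell types had median differences of -0.09 over 14 leukocyte, -0.02 over 10 fibroblast and -0.08 over 10 endothelial genes, and none of them differed 2-fold. The leukocyte marker PTPRC was at 4.56 and 4.65, near the low end of both arrays, while CD68 (11.04 and 11.45) and LAPTM5 (10.47 and 9.79) were high. In RNA from whole cultures, a transcript raised in a few cells and one raised slightly in all cells cannot be told apart.

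Many of these promoters carry the core of the ISRE, and the stretches printed next show it in members with large increases and in members with none. RefSeq promoter windows (GRCh38.p14, 250 bases before to 50 after a start) were found for 32 of the 39 genes. The ISRE core was searched as GAAA, any 2 bases, GAAA, on both strands (TTTC, any 2 bases, TTTC on the other), and overlapping matches were allowed. It was present in 22 of the 32 members with a window (68.8%), against 1195 of 27305 genes with a window (4.38%). The GAS core, TTCNNNGAA, which reads the same on both strands, was present in 11 of the 32 (34.4%), against 9.38% of all genes with a window. In some windows the GAS and ISRE matches overlap. A match is a description of these letters and not of binding, and the list was made of known interferon targets.

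The first 4 stretches belong to members at least 2-fold higher in EBC1-R, and the other 5 to members that were lower. Each runs 5′ to 3′ on the strand of its gene, ends before the start, and has the core matches in capitals. For genes with several starts, the most upstream start with a match before it was used. The positions are chr10:89392492-89392544 (plus strand) for IFIT1, chr10:89327826-89327899 (plus) for IFIT3, chr1:27672261-27672363 (minus) for IFI6 and chr11:313985-314024 (plus) for IFITM1. For the others they are chr1:1013369-1013414 (plus) for ISG15, chr1:78649756-78649788 (plus) for IFI44, chr1:78620269-78620399 (plus) for IFI44L, chr19:17405730-17405775 (minus) for BST2 and chr15:88638932-88638971 (plus) for ISG20.
IFIT1: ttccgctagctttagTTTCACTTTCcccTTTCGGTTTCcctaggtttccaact
IFIT3: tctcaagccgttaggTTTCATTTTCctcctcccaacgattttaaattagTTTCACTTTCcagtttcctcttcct
IFI6: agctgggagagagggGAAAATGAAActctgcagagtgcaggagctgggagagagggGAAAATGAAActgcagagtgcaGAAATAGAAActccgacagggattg
IFITM1: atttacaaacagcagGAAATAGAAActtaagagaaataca
ISG15: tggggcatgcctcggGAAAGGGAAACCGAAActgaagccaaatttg
IFI44: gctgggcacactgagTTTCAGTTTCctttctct
IFI44L: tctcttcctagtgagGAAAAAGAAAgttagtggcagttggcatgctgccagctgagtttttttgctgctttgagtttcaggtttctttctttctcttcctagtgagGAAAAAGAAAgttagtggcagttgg
BST2: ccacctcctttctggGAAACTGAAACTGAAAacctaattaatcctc
ISG20: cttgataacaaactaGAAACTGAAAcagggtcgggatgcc

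The core was thus found both in members that were higher and in members that were not. IFI6 had 3 matches before its start, IFIT1 and IFIT3 had 2 each, and ISG15, IFI44L and BST2 also had 2 each. The 22 measured members with a core ranged from -0.64 to 1.43 with a median difference of 0.33, and 17 of them were higher. The 9 measured members with a window and no core ranged from -0.43 to 0.81 with a median of 0.31, and 7 were higher. Over all genes 43.3% were higher. At least 2-fold higher were 4 of the 22 members with a core (18.2%) and 0 of the 9 without, a difference that was not tested. Of the members without a core, IRF1, OAS1, IRF9 and IFI35 had a GAS match. Among all 585 genes with a core and a value the median difference was -0.01, and 2.22% were at least 2-fold higher, against 1.26% of the 13625 genes with a window and no core. IFIT2, OAS2, OASL, MX2, IRF7, USP18 and TRIM22 had no window in the table used here.

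As a group the interferon response genes were moderately higher in EBC1-R. Of the 38 measured members 30 were higher (78.9%), whereas 43.3% of all genes were. The members had a median difference of 0.37, and all genes together -0.03. In all, 6 members were at least 2-fold higher (15.8%, against 1.26% of all genes), namely IFIT1, IFIT2, TRIM22, IFIT3, IFI6 and IFITM1, and none was at least 2-fold lower, as were 0.887% of all genes. At 1.5-fold, 13 members were higher (4.41% of all genes were) and 1, IFI44, was lower (3.16% of all genes). The member nearest below the 2-fold line was OAS2 at 0.91, and the nearest above it was IFITM1 at 1.17. The central 95% of differences over all genes lay between -0.65 and 0.75, and 9 members lay above that range and none below it. Of 10 measured genes often used as references, 6 were higher and 4 lower, with a median of 0.02 and none 2-fold different. They ranged from PPIA at -0.86 to TFRC at 0.82, so such genes also reached differences of the size of the 1.5-fold calls. No member was 3-fold different, and 86 genes of the table had a larger increase than IFIT1, the member with the largest.

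**Figure D1:**
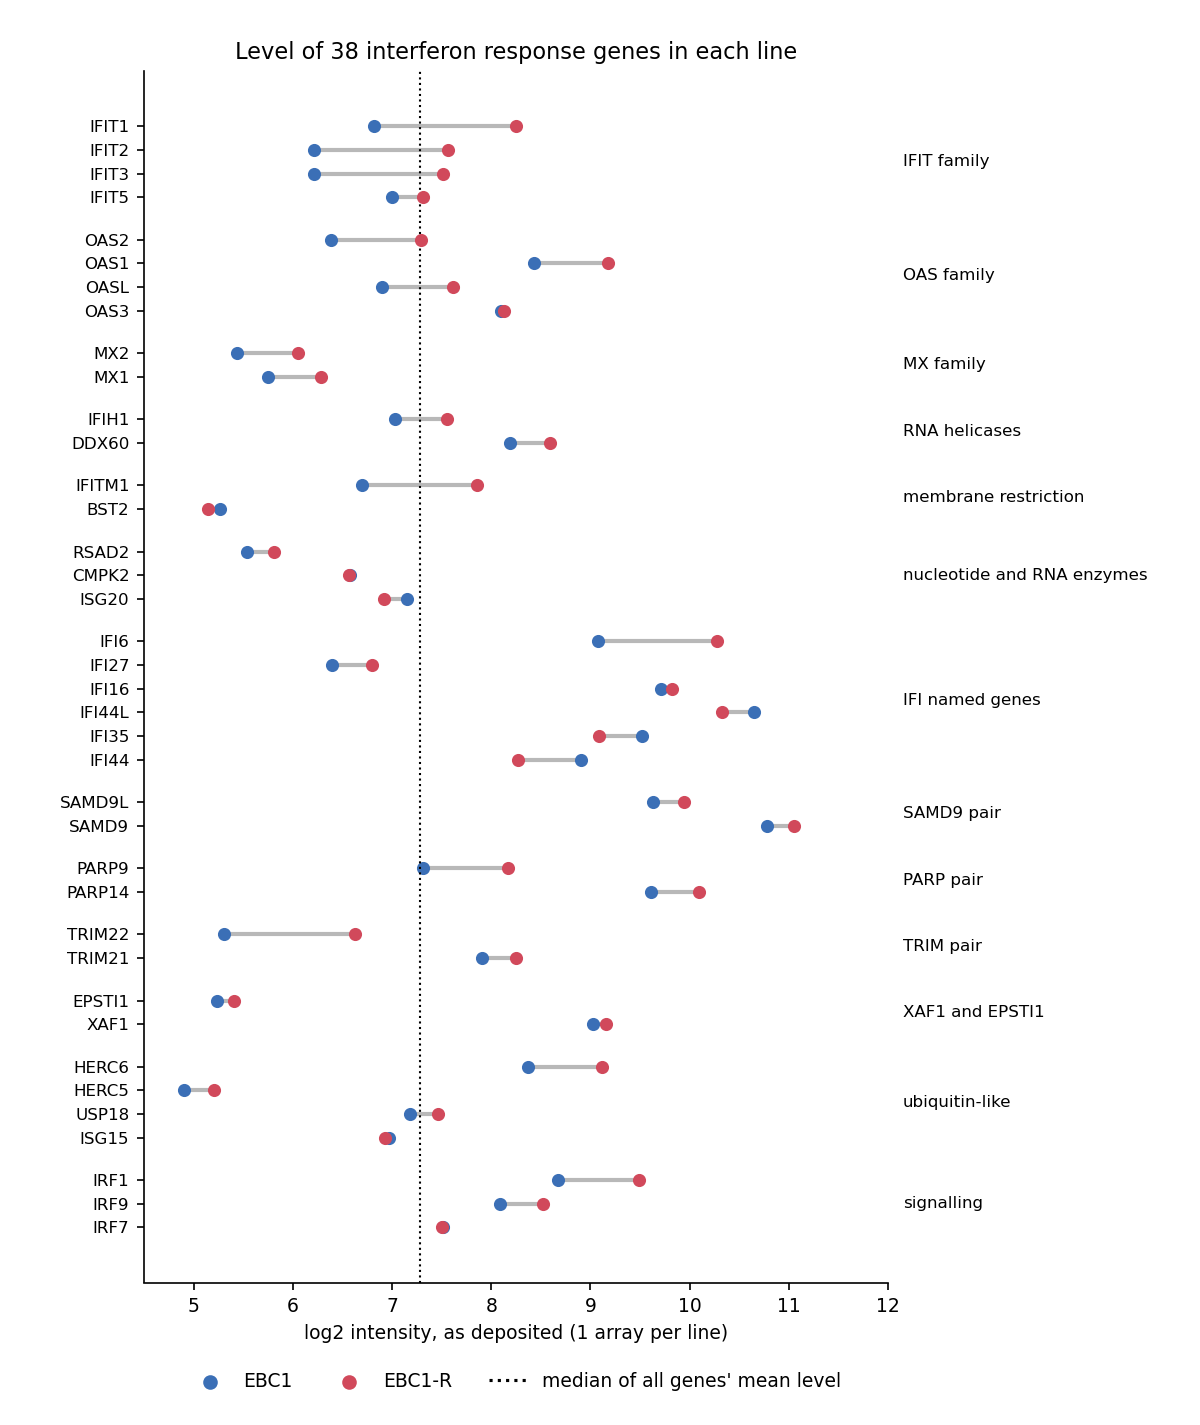
Log2 intensity of the 38 measured interferon response genes in EBC1 (blue) and EBC1-R (red), 1 array each, grouped by role, with a dotted line at the median of all genes' mean level. Red lies to the right of blue in 30 genes, with the widest gaps in IFIT1, IFIT2, IFIT3, TRIM22, IFI6 and IFITM1.

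The level of a member bears on how its difference is read, since low intensities were not separated from background and compress a change. By the mean of both arrays 21 members lay above the median of all genes, 7.28, and 17 lay below it. The median difference was 0.34 in the members above that median level, 17 of them higher, and 0.40 in those below it, 13 of them higher. Of the 6 members at least 2-fold higher, IFIT1 and IFI6 were above the median level, where 1.77% of genes were at least 2-fold higher. IFIT2, IFIT3, TRIM22 and IFITM1 were below it, IFITM1 by less than 0.01. Each of the 38 members had 1 probe set annotated to its symbol alone, so no gene value of a member rests on a second reading.

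**Figure D2:**
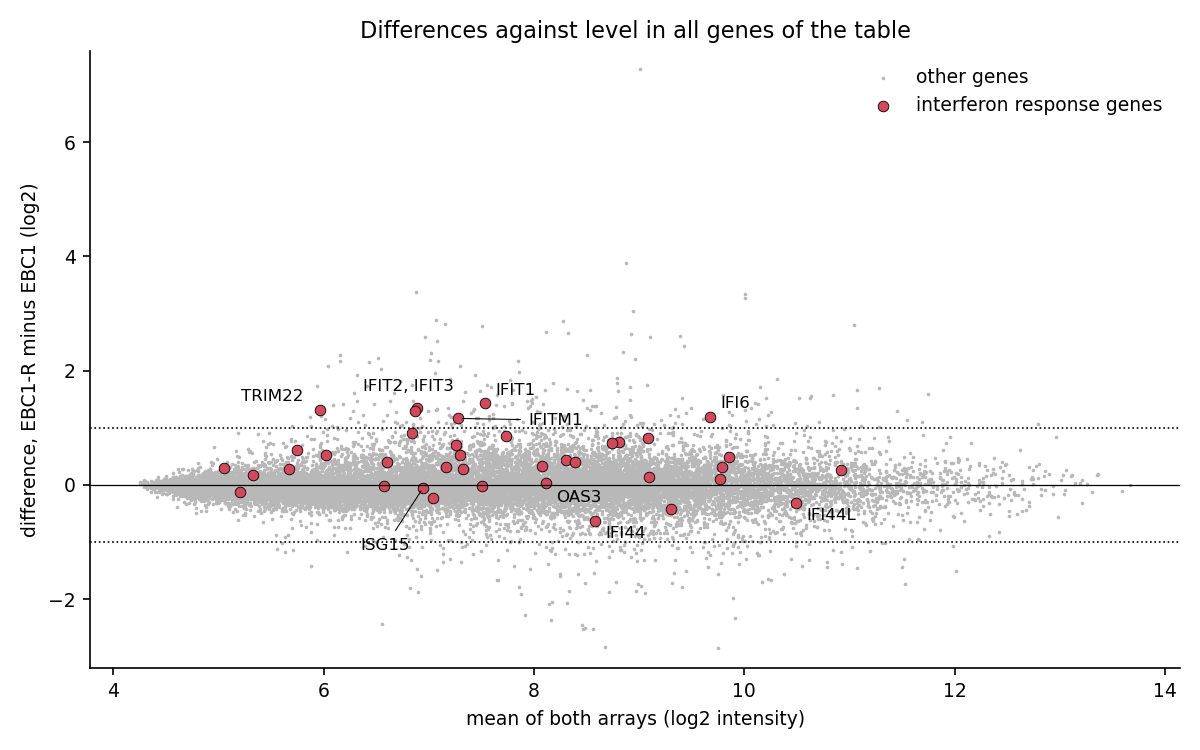
Difference between the lines (log2, EBC1-R minus EBC1) against the mean of both arrays (log2 intensity) for all genes (grey) and for the 38 interferon response genes (red), with dotted lines at 2-fold. The 6 members above the upper dotted line span mean levels on both sides of 7.28, IFI44 has the lowest red value at -0.64, and the highest grey point is ABCB1 at 7.27.

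The IFIT family had the largest median difference of the effector groups. IFIT proteins bind RNA that lacks the marks of the cell's own transcripts and block its translation. IFIT1 stood at 6.82 in EBC1 and 8.25 in EBC1-R, differing by 1.43 (2.70-fold). IFIT2 was at 6.21 and 7.56, which is 2.55-fold higher. IFIT3, which stabilises IFIT1 on RNA, was at 6.22 and 7.52, which is 2.46-fold higher. These 3 genes were below the median level of all genes in EBC1 and above it in EBC1-R. IFIT5 stood at 7.003 in EBC1 and 7.32 in EBC1-R, differing by 0.31, and its promoter window held 3 core matches. The family's median difference was 1.32, and adding 16 to the linear intensities lowered it to 1.16.

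The OAS family was at least 1.5-fold higher in 3 of its 4 members (4.41% of all genes were). OAS enzymes make 2′-5′ oligoadenylates on double-stranded RNA, which activate RNase L. OAS2 stood at 6.38 in EBC1 and 7.29 in EBC1-R (1.88-fold), and OAS1 was at 8.43 and 9.18 (1.68-fold). OASL, which lacks the synthetase activity and carries ubiquitin-like domains, was at 6.90 and 7.61 (1.63-fold). OAS3 differed by 0.03, from 8.10 to 8.13, so the family was not uniform, and its median difference was 0.73. Over the 2 members above the median level, OAS1 and OAS3, the median was 0.39.

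The MX proteins, dynamin-like GTPases that trap viral nucleocapsids, were both read at low intensity. MX1 stood at 5.75 in EBC1 and 6.29 in EBC1-R, differing by 0.53. MX2 was at 5.44 and 6.05, a difference of 0.61 or 1.52-fold. In EBC1 they stood at the 20.5th and 14.6th percentile of all genes.

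The signalling members were higher in 2 of 3 (66.7%, against 43.3% of all genes), none of them 2-fold (1.26% of all genes). IRF1, a transcription factor induced by interferon gamma through its GAS and also by NF-kB, stood at 8.68 in EBC1 and 9.49 in EBC1-R (1.76-fold). IRF9, which binds DNA in the complex with STAT2, was at 8.09 and 8.52, a difference of 0.43. IRF7, which drives later interferon alpha production and is itself a strong interferon target, differed by -0.01, from 7.52 to 7.50. The median difference of the group was 0.43.

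The ISG15 conjugation group was split. ISG15, the ubiquitin-like modifier itself, stood at 6.97 in EBC1 and 6.93 in EBC1-R, differing by -0.05. HERC6, a HECT-domain protein related to the ISG15 ligase, was at 8.37 and 9.11 (1.67-fold). HERC5, the main human ISG15 ligase, was at 4.91 and 5.20, near the low end of both arrays, with a difference of 0.30. USP18, which removes ISG15 and also blocks the type I receptor, was at 7.18 and 7.47, a difference of 0.28. A second probe set annotated to both USP18 and USP41P, which was left out of the gene values, gave USP18 a difference of 0.20 when it was included. The group's median difference was 0.29.

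Members that sense or hold back viruses at other steps also differed from each other. IFIH1, which encodes the double-stranded RNA sensor MDA5, stood at 7.03 in EBC1 and 7.56 in EBC1-R, differing by 0.53. DDX60, a helicase linked to such sensing, was at 8.19 and 8.59, a difference of 0.40. IFITM1, a membrane protein that hinders viral entry, was at 6.69 and 7.86 (2.24-fold). BST2, or tetherin, which holds budding virions at the cell surface, was at 5.27 and 5.15, a difference of -0.12 at a low level. IFITM1 has close paralogs in IFITM2 and IFITM3, and hybridisation between them was not tested.

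The enzymes that act on nucleotides and RNA differed in opposite directions, each by less than 1.5-fold. RSAD2, or viperin, which makes a chain-terminating nucleotide, stood at 5.54 in EBC1 and 5.81 in EBC1-R (higher by 0.28), and CMPK2, a mitochondrial nucleotide kinase encoded next to it, was at 6.58 and 6.56. ISG20, an RNA exonuclease, was at 7.15 and 6.92, a difference of -0.23. All 3 were below the median level, and their median difference was -0.02.

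Genes grouped by the IFI name differed widely. They ran from IFI6, among the 6 members at least 2-fold higher, to IFI44, the member with the lowest difference. IFI6, a mitochondrial and endoplasmic reticulum protein that opposes apoptosis, stood at 9.08 in EBC1 and 10.28 in EBC1-R (2.30-fold). IFI27, a mitochondrial protein of the same family, was at 6.40 and 6.80, a difference of 0.40. IFI16, a nuclear DNA sensor, was at 9.71 and 9.82, a difference of 0.11. IFI44 was lower in EBC1-R, at 8.27 against 8.90 (1.55-fold). IFI44L was at 10.33 against 10.65, a difference of -0.32, and IFI35 was at 9.09 against 9.52, a difference of -0.43. These 3 lower members were all above the median level.

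The remaining pairs were higher in EBC1-R in every case, whereas 43.3% of all genes were. TRIM22, an antiviral ubiquitin ligase, stood at 5.31 in EBC1 and 6.63 in EBC1-R (2.49-fold), both values below the median level. TRIM21, a cytosolic antibody receptor, was at 7.91 and 8.25, a difference of 0.34. PARP9 was at 7.31 and 8.17 (1.82-fold), and PARP14, a mono-ADP-ribosyltransferase, was at 9.62 and 10.10, a difference of 0.48. SAMD9 (10.78 and 11.05) and SAMD9L (9.64 and 9.95), which restrain translation, differed by 0.27 and 0.31. XAF1, which opposes the inhibitor of apoptosis XIAP, differed by 0.14 and EPSTI1 by 0.17.

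Many members lie in clusters, and the genes beside them were compared by their order in the RefSeq table. The 11 loci are clusters and pairs plus IFI6, TRIM22 and IFITM1, which are single members that were each at least 2-fold higher. Single members that were lower, such as ISG15 and BST2, were left out. The 22 members at these loci had a median difference of 0.57, against 0.37 over all members. Of the 22, 19 were higher (43.3% of all genes were). These loci hold all 6 members at least 2-fold higher, so they are not a neutral choice to set against the neighbours. The 47 measured protein-coding genes between these members or among the nearest 2 on either side had a median of 0.01. Of the 47, 25 were higher. At least 2-fold, 2 were higher and 1 lower (1.26% and 0.887% of all genes). These neighbours include other known interferon targets (TRIM5, IFITM2, IFITM3 and DTX3L). Some were near the low end of both arrays, such as PARP15 at 4.58 and 4.61. On chromosome 10 the order is LIPA (0.41), IFIT2 (1.35), IFIT3 (1.30), IFIT1B (0.01), IFIT1 (1.43), IFIT5 (0.31) and SLC16A12 (0.21). IFIT1B, a paralog within the cluster, was at 5.04 in both lines. On chromosome 12 OAS3 (0.03) lies between OAS1 (0.75) and OAS2 (0.91), and the flanking RPH3A and DTX1 differed by -0.19 and -0.22.

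At several loci a neighbour differed as well. TRIM5, a retroviral restriction factor beside TRIM22 on chromosome 11, was at 7.85 and 8.85 (2.01-fold). IFITM3, beside IFITM1, was 1.49-fold higher, at 10.50 and 11.08, and IFITM2, which is in the same cluster, differed by 0.10. Both genes that flank HERC6 and HERC5 on chromosome 4, PPM1K (1.71-fold) and HERC3 (1.81-fold), were higher. Next to the lower pair IFI44L and IFI44 on chromosome 1, ADGRL4 differed by -1.01 at a low level (6.11 and 5.10), and ADGRL2 by -0.35. On the other side PTGFR, also low (5.24 and 5.17), differed by -0.07. Between PARP9 and PARP14 on chromosome 3, DTX3L, the partner of PARP9, differed by 0.004. After RSAD2 in the order of measured genes, RNF144A differed by -0.19, and ID2, the gene after that, was 2.66-fold higher. SAMD9 and SAMD9L are on chromosome 7 with ABCB1, 24 measured protein-coding genes away, and without them the members' median difference was 0.40.

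**Figure D3:**
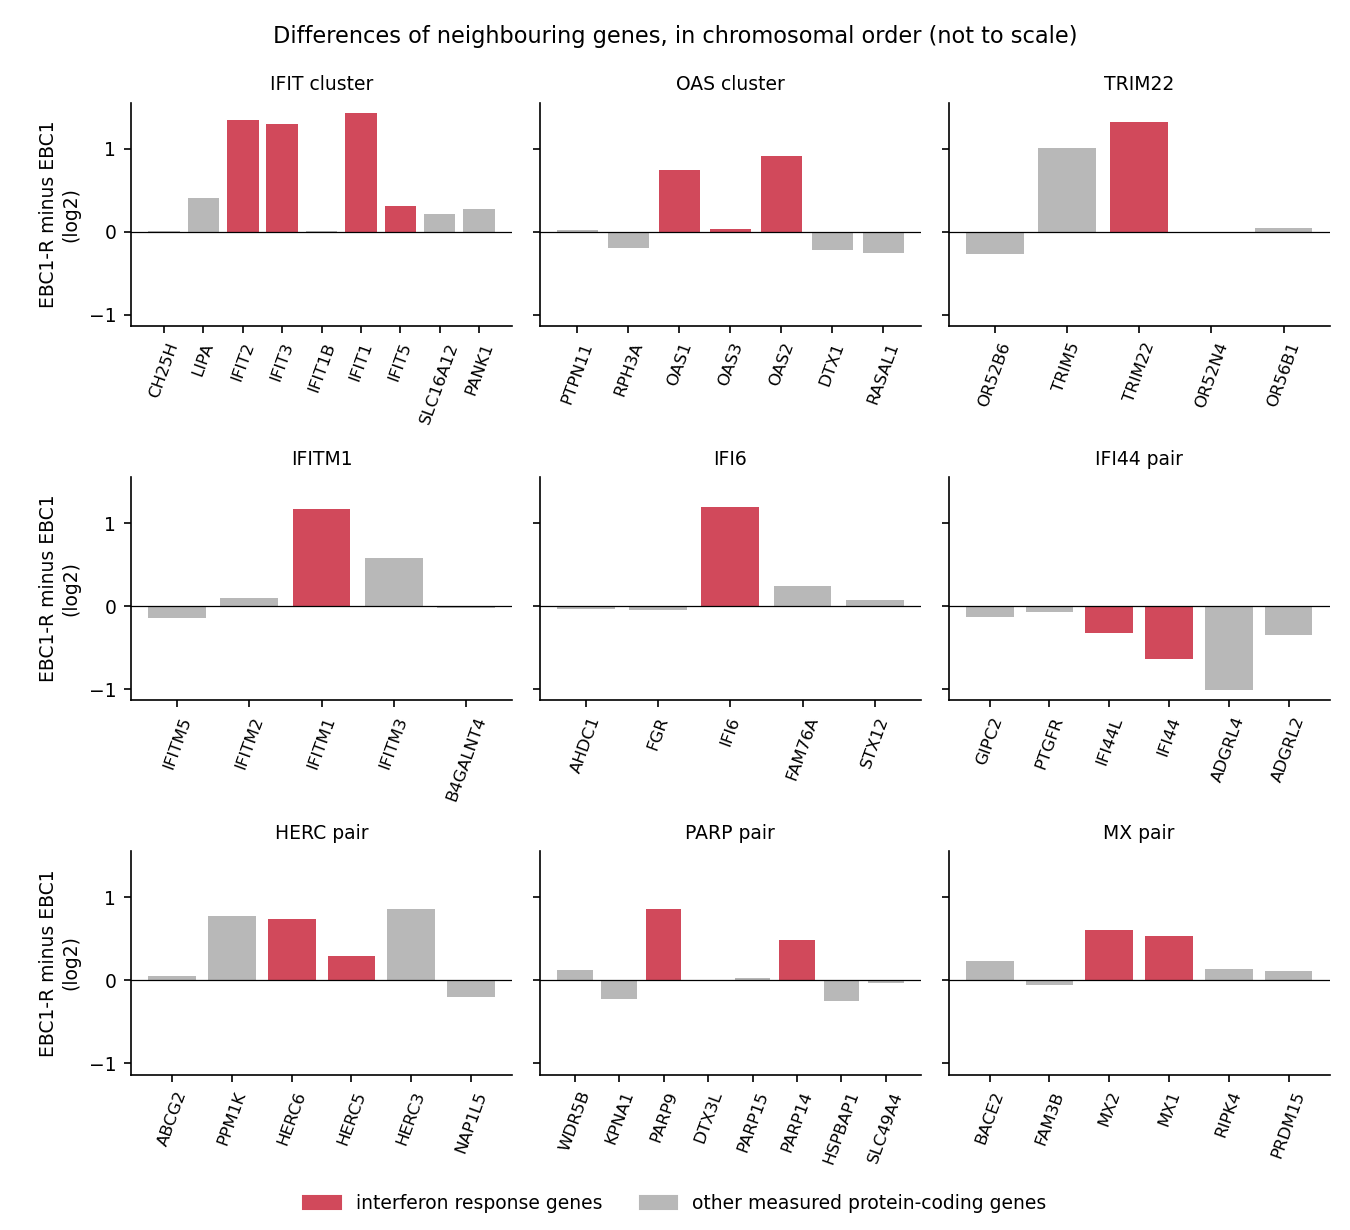
Difference between the lines (log2, EBC1-R minus EBC1) for interferon response genes (red) and the measured protein-coding genes between and beside them (grey) at 9 loci, in chromosomal order and not to scale. IFIT2, IFIT3 and IFIT1 stand above IFIT1B and the flanking genes, OAS3 stays near 0 between OAS1 and OAS2, and the grey bars of TRIM5, HERC3, PPM1K and ADGRL4 differ along with members beside them.

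The genes upstream of these targets were set beside them, by role. Interferon ligands were low in both lines. Of the measured ligands, 14 of 16 were lower, none 2-fold, with a median difference of -0.08, and 1 of them, IFNL3, was above the median level. IFNB1, the interferon beta gene, stood at 4.78 in EBC1 and 5.06 in EBC1-R. IFNE differed by -0.47 (6.38 to 5.91), IFNL3 by -0.30 (8.05 to 7.75) and IFNL2 by -0.27 (6.67 to 6.40). Paralogs of the alpha family are so alike that probe sets may cross-hybridise, and those annotated to several genes were not used.

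All 6 receptor subunits had higher values in EBC1-R (43.3% of all genes did), with a median difference of 0.41. IFNGR1, the ligand-binding subunit for interferon gamma, stood at 7.88 in EBC1 and 9.27 in EBC1-R (2.62-fold), while its partner IFNGR2 was at 8.84 and 8.86. IL10RB, shared by the lambda interferon and interleukin 10 receptors, was at 8.27 and 8.93 (1.58-fold). Of the type I receptor, IFNAR2 was at 6.50 and 7.09 (a difference of 0.59) and IFNAR1 at 8.49 and 8.72 (0.23). IFNLR1 differed by 0.20.

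Downstream of the receptors, JAK1 stood at 10.88 in EBC1 and 11.54 in EBC1-R (1.57-fold), TYK2 differed by 0.22, STAT3 by 0.33 and JAK2 by -0.29. Of 7 negative regulators, 4 were higher (57.1%, against 43.3% of all genes), with a median of 0.11. SOCS3, a feedback inhibitor of cytokine receptors, was 2.30-fold lower, from 7.73 to 6.53. It was the 1 gene at least 2-fold lower among 88 measured pathway genes, and 0.887% of all genes were. SOCS1, the inhibitor most tied to interferon receptors, differed by -0.23, PTPN6 by 0.42 and PTPN1 by -0.20. Of 12 nucleic acid sensors and adaptors, 9 were higher (75%, against 43.3% of all genes), with a median of 0.14. None was at least 2-fold higher, as were 1.26% of all genes. RIGI, the sensor of 5′-triphosphate RNA, was at 8.05 and 8.72 (1.59-fold), the kinase IKBKE at 7.61 and 8.34 (1.66-fold), the endosomal sensor TLR3 at 8.01 and 8.60 (a difference of 0.59), and IRF3 differed by -0.29.

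Most other known interferon targets outside the 39 were higher, and GBP2 differed by more than any measured member. Of 30 measured type I targets, 26 were higher (86.7%, against 43.3% of all genes) and 4 lower, with a median difference of 0.28. TRIM5 was the 1 gene at least 2-fold higher (3.33%, against 1.26% of all genes). That gene sat on the line at 1.004 and came out just under it after quantile normalization, lowess removal or a pseudocount. SP110, a nuclear body protein, stood at 6.77 in EBC1 and 7.49 in EBC1-R (1.64-fold). UBA7, the enzyme that activates ISG15, was at 7.49 and 8.13 (1.56-fold), and PNPT1, a mitochondrial RNA exonuclease, was at 7.95 and 8.57 (1.53-fold). Of 13 measured interferon gamma targets, 12 were higher (92.3%) and 1, IRF8, had the same value on both arrays, with a list median of 0.35. The guanylate-binding protein GBP2 was at 6.66 and 8.31 (3.12-fold, mean of 2 probe sets). GBP4 was at 5.51 and 6.30 (1.74-fold), GBP5 differed by 0.60 at a low level, and the lysosomal reductase IFI30 differed by 0.62.

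The antigen presentation genes, which share interferon regulation, were set beside the members for their values alone. MHC class I presentation genes were higher in 8 of 10, median 0.24, and MHC class II genes in 8 of 9, median 0.38, against the members' 0.37. Over all genes 43.3% were higher. The class II median moved with the genes kept: it was 1.48 over the 3 genes above the median level and 1.03 with probe sets of several symbols. HLA-DPA1 (1.67) and HLA-DPB1 (1.48) differed by more than any of the 38 measured members. They were the 2 class II genes at least 2-fold higher (22.2%, against 1.26% of all genes). The difference between the members and these lists was not tested.

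**Figure D4:**
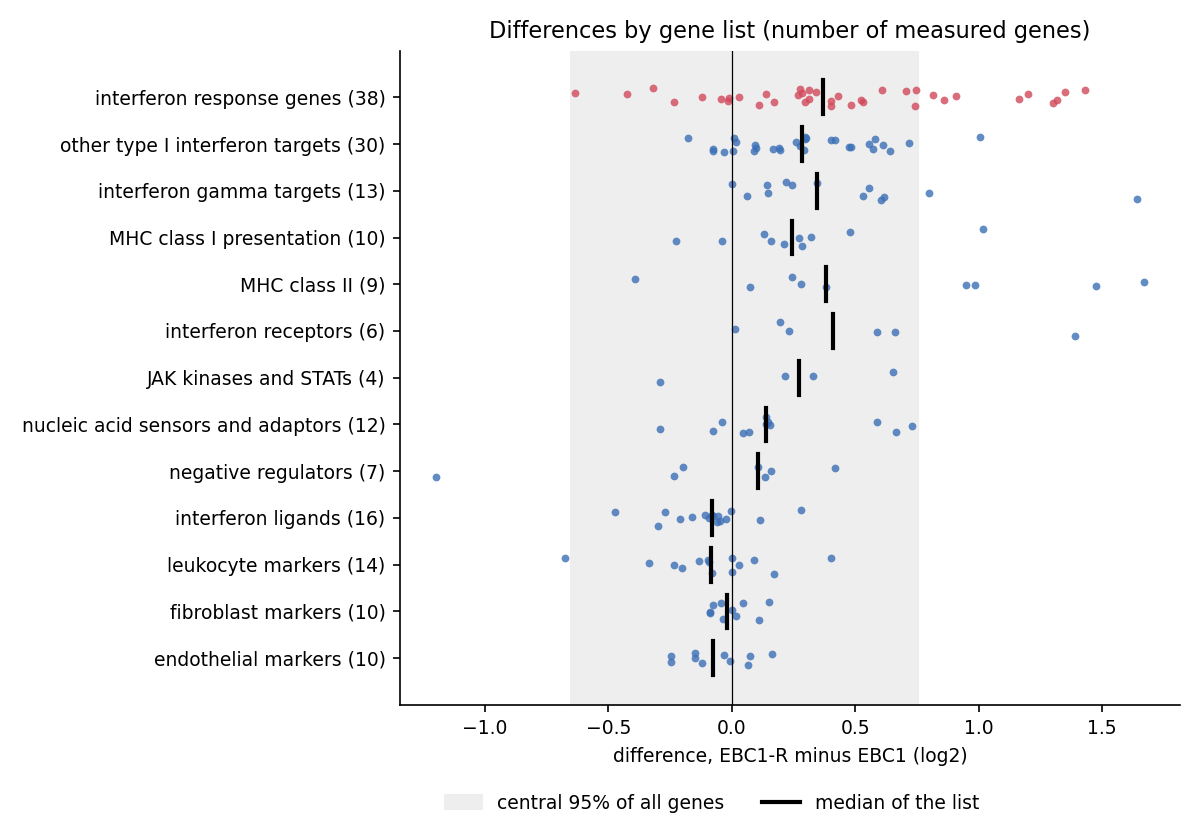
Differences between the lines (log2, EBC1-R minus EBC1) of each measured gene (points, spread vertically to separate them), by list, with list medians (black bars) and the central 95% of all genes (grey band, -0.65 to 0.75). The members' median of 0.37 and that of other type I targets of 0.28 lie to the right of 0. The medians of ligands (-0.08) and of leukocyte, fibroblast and endothelial markers lie at or left of 0, and the median over all genes was -0.03.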

How the data were processed

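The authors deposited 1 log2 intensity per probe set and array (28869 probe sets, 2 arrays). The log base was inferred from the values (4.21 to 14.1 in EBC1). No source used here names the background correction, summarization or software. The probe identifiers match a whole-transcript gene array, whereas the extraction protocol in the labels names another type of array. Ranked values of the arrays lay within 0.17 of each other, so both had been scaled alike before deposit, which removes any change shared by most genes. By the platform annotation 19310 probe sets had 1 gene symbol, 1752 had several and 7807 were unnamed. Gene identifiers of 19279 of the 19310 matched a RefSeq table (GRCh38.p14), which changed no symbol. Probe sets with 1 symbol were averaged per gene. The array design's build is not given, so gene order only was taken from RefSeq, and sequences carry RefSeq's own build. The named genes are all members, up to 4 genes of each list with the largest difference, the receptor subunits and a few fixed pathway genes. Some further cell type markers and the cluster neighbours are also named. Members and lists were chosen with earlier results of these data known. With 1 array per line no test was made, and no error between cultures can be given. Alternatives were quantile normalization, median centring, lowess removal (span 0.2), a pseudocount of 16, filters on level, the brightest probe set, probe sets of several symbols, other thresholds, and members left out. Counting was tested on simulated data. Python 3.11.15, pandas 2.3.3, numpy 2.4.6, statsmodels 0.14.6 and matplotlib 3.10.9 were used.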

Additional observations from a re-analysis of the deposited data

How the results depend on the processing

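Values were compared with a tolerance of 0.15, the pooled SD between probe sets of the same gene (685 genes, 1618 probe sets), which holds no variation between cultures; the number of arrays limits the precision. The members' median difference lay between 0.33 and 0.43 under all 10 alternatives, and between 30 and 32 members were higher wherever all 38 entered. No called difference changed sign; of the 38 members, IRF7 and CMPK2, both within 0.02 of 0, took the other sign under some scalings. Counts depended on the threshold and on the members kept. At 1.5-fold 13 members were higher and 1 lower, and at 3-fold 0 were higher. Without the IFIT family 3 members were at least 2-fold higher. With a filter on mean level, which kept 21 members, 17 were higher and 2 at least 2-fold. That filter gave medians of 0.39 for the OAS family, 0.51 for the ISG15 conjugation group, -0.32 for the IFI named genes, 0.34 for the TRIM pair, -0.30 for ligands, 0.23 for receptors and 1.48 for MHC class II. A filter on the higher value, which can select by the difference, gave 0.51, -0.32, 0.34, -0.30 and 1.48 for the ISG15 conjugation group, IFI named genes, TRIM pair, ligands and MHC class II, and 1.17 for the membrane pair, of which it left IFITM1 alone. In these cases fewer genes entered. A pseudocount of 16 lowered the IFIT median to 1.16. Probe sets of several symbols raised the medians of interferon gamma targets to 0.54 and of MHC class II to 1.03, by adding genes. No paired analysis was possible because each line had 1 array.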
